A study of Mus musculus with 31 samples.

Results

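Kit, Aldh1a3, Elf5, Ehf, Elf3, Cd14, Prom1, Epcam and Cd24a mark luminal progenitor cells and the surface of epithelial cells in the mouse mammary gland. They were chosen by their symbols in the annotation of the array, which gives these 9 genes 19 probe sets, among 18193 genes that have a probe set with a single symbol. RNA of whole mammary tissue was hybridised from K5ΔNβcat mice, as 11 tumors, 5 large hyperplasias and 5 small hyperplasias, and from control mice, as 4 samples of mammary tissue. In K5ΔNβcat mice a stable β-catenin without its N-terminus is driven by the keratin 5 promoter, so that the Wnt pathway is switched on in the basal cell layer. Apart from these 25 arrays, 6 arrays held RNA of basal cells sorted by CD24 and CD49f, 3 pools from K5creMycL/L mice and 3 from control mice. In K5creMycL/L mice Cre from the keratin 5 promoter deletes Myc in keratin 5-expressing cells, and each pool holds cells of several mice. The labels give the strain as C57BL6 for all samples and the methods a mixed 129SV/C57BL6 background, and neither gives the age of the animals. As the labels do not tie the tissue samples to separate animals, p-values refer only to the variation among these samples, which may be technical.

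The mammary epithelium has an inner luminal and an outer basal layer. Luminal progenitors are cells of the inner layer that lack hormone receptors and give rise to milk-secreting alveolar cells. Kit, Aldh1a3, Elf5 and Cd14 are among the genes used to tell them from other cells. Ehf, Elf3 and Elf5 are epithelial members of the ETS family of transcription factors, and Epcam and CD24 are glycoproteins of the epithelial cell surface that serve in cell sorting.

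Values are linear MAS5 signals, scaled by the authors to the same trimmed mean of 100 on each array, and a signal of 30 was taken as the background limit, as in the methods. Differences are limma estimates on log2 of the signal plus 16, with standard errors, and understate the change of dim genes. A gene is represented by its brightest probe set and counts as called where its p, adjusted by Benjamini-Hochberg over all probe sets tested, was under 0.05. Between 46.2% and 51.9% of probe sets reached 30 on a tissue array, and 38.5% to 42.8% on an array of sorted cells, where both pools numbered 2 had the fewest. Tumors 1 to 3 correlated with each other at 0.974 to 0.979 and with the other 8 tumors at 0.926 to 0.962, a range that overlaps with the 0.930 to 0.975 among those 8. Control tissue 1 correlated with the other controls at 0.959 to 0.962, below the 0.972 to 0.973 among those. Whole tissue changes in makeup between the groups. The summed signal of 4 adipocyte markers ranged from 601 to 6022 in tumors and from 31136 to 33626 in control tissue, and that of 5 neutrophil markers from 7536 to 16471 in tumors and from 48.5 to 339 in control tissue. In such samples fewer cells of a type and less RNA per cell cannot be told apart.

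The members did not move as a block. In tumors against control tissue 4 members were higher, Aldh1a3, Cd24a, Ehf and Cd14, where 35% of all genes tested were higher. Kit and Prom1 were lower, where 36.8% of all genes were lower, so that the counts are close to those of genes in general. The median log2 difference over the 9 members was 0.31, and that of all 11831 genes was -0.02. In large hyperplasias against the same control arrays 4 members were higher (26.8% of all genes), Cd24a, Ehf, Aldh1a3 and Epcam, and 0 were lower (22.9%). In small hyperplasias 3 members were higher (19.3%), Cd24a, Aldh1a3 and Epcam, and 0 were lower (15.3%). These comparisons share the 4 control samples, so their values are not independent of each other. All differences below come from limma fits in which adjusted p-values were taken over every probe set tested. The shares of all genes given here are also the reference for the counts of other gene lists below, in the same comparisons.

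**Figure D1:**
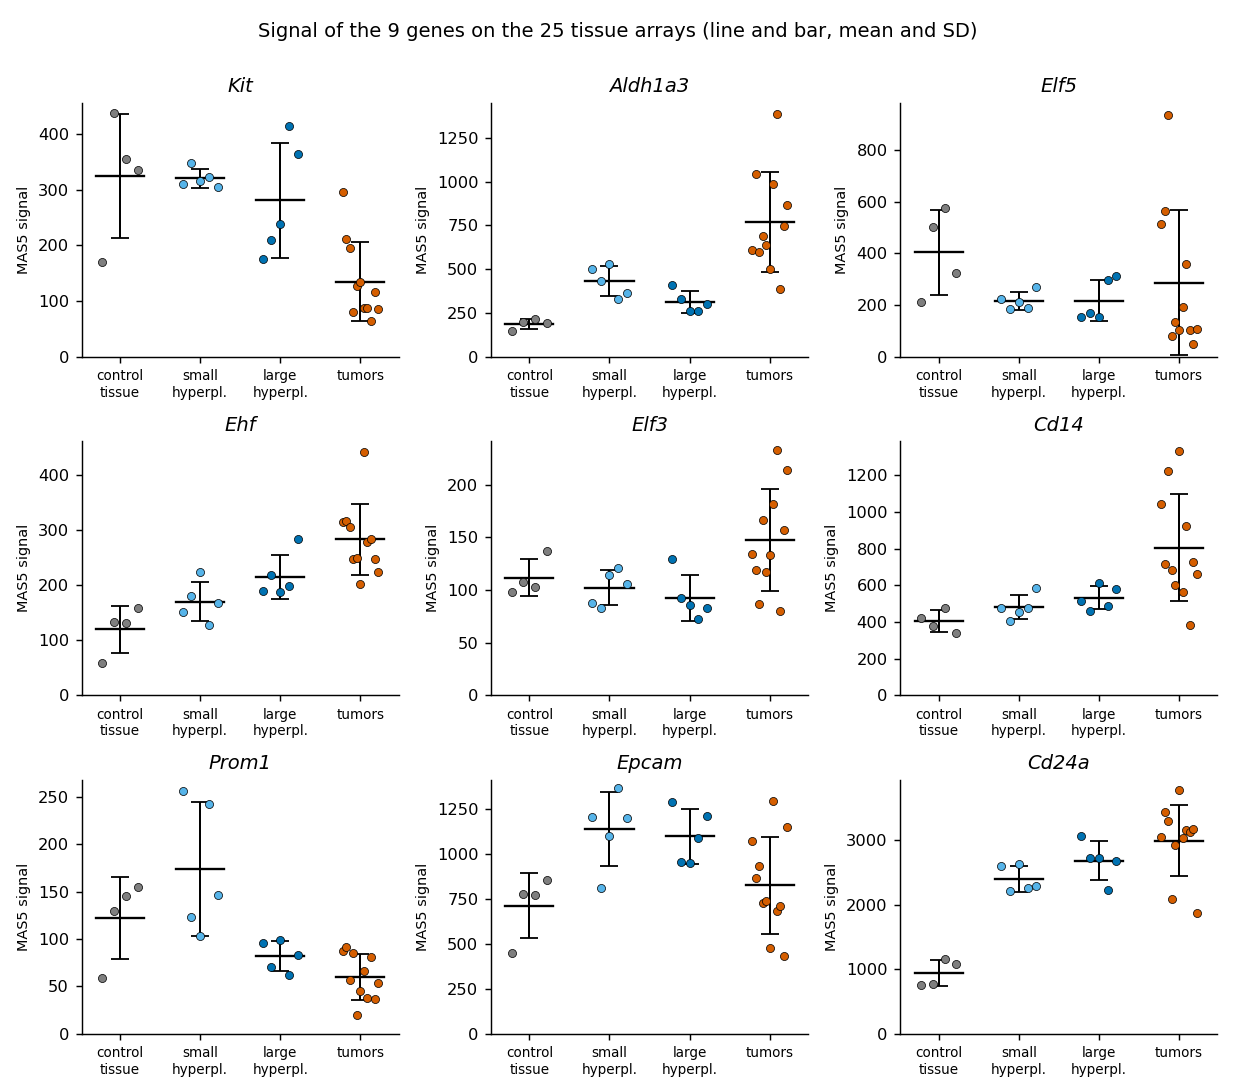
MAS5 signal (linear axis from 0) of the brightest probe set of each of the 9 genes on the 25 tissue arrays, ordered from control tissue over small and large hyperplasias to tumors; points are samples, the line and bar are the mean and SD. Cd24a and Aldh1a3 lie above control tissue in every lesion, Kit and Prom1 are lowest in tumors, and Elf5 spreads from 48.9 to 936 over the 11 tumors.

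**Figure D2:**
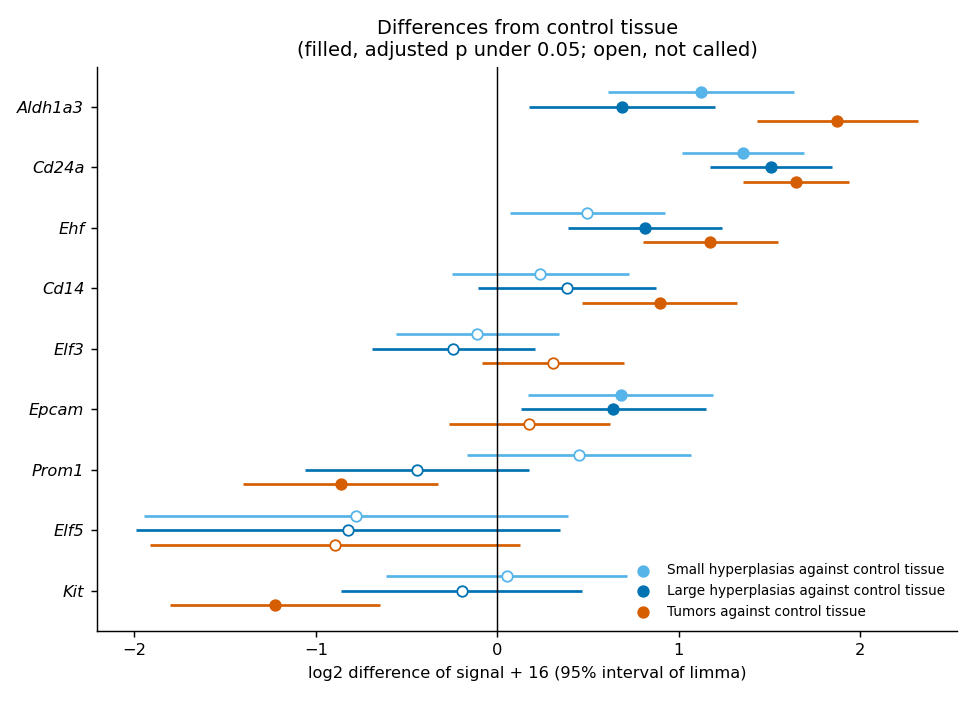
Log2 difference from control tissue (signal plus 16) with its 95% interval for the 9 genes in small hyperplasias (light blue), large hyperplasias (dark blue) and tumors (orange); filled points are called at an adjusted p under 0.05. In tumors the differences run from -1.23 for Kit to 1.88 for Aldh1a3.

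Aldh1a3, an aldehyde dehydrogenase that makes retinoic acid from retinal and underlies much of the ALDEFLUOR staining used for progenitor cells, had the largest rise of the 9 in tumors. Its signal was 147, 197, 217 and 189.6 in control tissue, 500.0, 434, 529.8, 328 and 361 in small hyperplasias, 409, 332, 263, 263 and 299 in large hyperplasias, and between 385 and 1387 with a median of 692 in tumors. Every lesion was above all 4 controls. Aldh1a3 was higher in tumors than in control tissue by 1.88 ± 0.22 (adjusted p = 3.3e-08), with a mean of 768 ± 285 in tumors and 188 ± 29.2 in control tissue (SD, n = 11 and 4). In small hyperplasias it was higher by 1.12 ± 0.25 (adjusted p = 0.0013) and in large ones by 0.69 ± 0.25 (adjusted p = 0.026). The call in large hyperplasias was lost without large hyperplasia 1 (0.59, adjusted p = 0.069) or without control tissue 1 (0.58, adjusted p = 0.088). Tumors were above large hyperplasias by 1.19 ± 0.20 (adjusted p = 2.7e-05) and above small ones by 0.75 ± 0.20 (adjusted p = 0.0027). The mean in large hyperplasias, 313, lay below that in small ones, 431, but that difference was not called (-0.44, 95% interval -0.92 to 0.05). Its other 2 probe sets were also higher in tumors than in control tissue, by 1.29 and 1.35, and 1 of them was not called in tumors against small hyperplasias (0.30, adjusted p = 0.19). In large hyperplasias against control tissue neither was called (0.50, adjusted p = 0.081, and 0.44, adjusted p = 0.24), and in small ones 1 was (0.99, adjusted p = 0.0023).

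Other genes of retinoic acid metabolism moved in both directions. Of 13 tested in tumors, 6 were higher and 6 lower than in control tissue, with a median of 0.30. Crabp2, a retinoic acid-binding protein, averaged 1684 in tumors and 31.3 in control tissue (5.29 ± 0.25), and Crabp1 averaged 506 and was listed under 30 on every control array (3.35 ± 0.55). Stra6, the receptor for retinol-binding protein, was higher by 2.56 ± 0.26. Aldh1a7, a relative of Aldh1a1, had a difference of -4.91, with 32.3 in tumors and 1261 in control tissue. Adjusted p-values of these 4 were 7.1e-06 or less by limma. In large hyperplasias 5 of 14 genes of the list were higher and 4 lower, and in small ones 3 of 13 were higher and 2 lower.

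Cd24a, which encodes the CD24 antigen, was higher in every kind of lesion. The signals were 759.5, 773, 1158 and 1080.4 in control tissue, 2595, 2213, 2637, 2262 and 2290.1 in small hyperplasias, 3069.7, 2719.9, 2726, 2223 and 2673 in large hyperplasias, and 1870.0 to 3781 with a median of 3122 in tumors. No lesion overlapped with control tissue. The rise was 1.65 ± 0.14 in tumors (adjusted p = 1.8e-10), 1.51 ± 0.16 in large hyperplasias (adjusted p = 6.3e-08) and 1.35 ± 0.16 in small ones (adjusted p = 1.2e-06), and its other 2 probe sets were called higher in the same 3 comparisons. Between tumors and small hyperplasias the difference was 0.29 (95% interval 0.02 to 0.56, adjusted p = 0.061), and between tumors and large hyperplasias 0.14 (-0.13 to 0.41). A second probe set of Cd24a was called in tumors against small hyperplasias (0.47, adjusted p = 0.016) and the third, whose name marks it as able to match other transcripts, was not (0.09, adjusted p = 0.68).

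Epcam, a homophilic adhesion molecule of epithelia, was highest in the hyperplasias. Its signal was 449, 776, 774 and 853 in control tissue, 1205, 809, 1100.2, 1365 and 1202 in small hyperplasias, 1288, 953, 948, 1087 and 1210.0 in large hyperplasias, and 432 to 1295 with a median of 736 in tumors. The tumors spread across the range of both other groups. Epcam was higher in small hyperplasias than in control tissue by 0.68 ± 0.25 (adjusted p = 0.038) and in large ones by 0.64 ± 0.25 (adjusted p = 0.037), and in tumors the difference was 0.18 ± 0.22 (95% interval -0.27 to 0.62, adjusted p = 0.47). Both calls in hyperplasias were lost without control tissue 1, the lowest of the controls (0.48, adjusted p = 0.17 in small and 0.44, adjusted p = 0.18 in large hyperplasias). Without small hyperplasia 1, 3, 4 or 5 the call in small hyperplasias was lost as well (0.61 to 0.69), and without large hyperplasia 1, 4 or 5 that in large ones (0.58 to 0.64). Tumors were lower than small hyperplasias by -0.50 ± 0.20 (adjusted p = 0.036), a call lost without small hyperplasia 1, 3, 4 or 5 (-0.51 to -0.43), with no filter, with only the 2 groups, with the replicate block and with the mean of all probe sets (-0.19, adjusted p = 0.35). The dimmer probe set of Epcam, which can match other transcripts, went otherwise, with 0.46 in tumors against control tissue (adjusted p = 0.031), 0.50 in tumors against large hyperplasias (adjusted p = 0.016) and -0.04 in large hyperplasias against control tissue (adjusted p = 0.89). Against large hyperplasias the brighter one gave -0.46 (adjusted p = 0.053), so that the probe sets of Epcam disagree in sign there.

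Other surface and junction genes of epithelia were higher in tumors for 10 of 13 tested, with 1 lower, and a median of 1.17. Dsp, the desmosomal plaque protein desmoplakin, averaged 3740 in tumors and 382 in control tissue (3.26 ± 0.11). Cdh1, which encodes E-cadherin, averaged 1671 in tumors and 338 in control tissue (2.29 ± 0.13). The tight junction gene Cldn4 was higher by 1.77 ± 0.23 and the protease inhibitor gene Spint2 by 1.72 ± 0.15, and Cldn3 was lower by -1.06 ± 0.24, all with a limma adjusted p of 0.00049 or less. In large hyperplasias 7 of 13 were higher and in small ones 8 of 13, against 26.8% and 19.3% of all genes. None was lower in either, against 22.9% and 15.3% of all genes. The summed signal of 7 basal epithelial markers was 8015 to 13041 in tumors and 4743 to 6008 in control tissue, but only Krt14, Krt5 and Trp63 were higher, and Oxtr (-3.47), Myh11 (-2.61), Cnn1 (-1.86) and Acta2 (-0.67) of the contractile cells were lower, with a median of -0.67 over the 7. That of 4 luminal keratins was 2070 to 6586 in tumors and 4382 to 6638 in control tissue. The part of the epithelial share of the tissue in the rise of Cd24a and of these genes was not tested.

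Ehf, an ETS factor of simple and stratified epithelia, was highest in tumors. Its signal was 58.8, 133, 131 and 157 in control tissue, 152, 179, 224, 127 and 167 in small hyperplasias, 189, 217, 187, 197 and 283 in large hyperplasias, and 201 to 441 with a median of 279 in tumors. Tumors and large hyperplasias lay wholly above control tissue, and small hyperplasias overlapped with it. Ehf was higher than in control tissue by 1.18 ± 0.18 in tumors (adjusted p = 2.9e-06) and by 0.82 ± 0.21 in large hyperplasias (adjusted p = 0.0022), and the 0.50 ± 0.21 of small hyperplasias was not called (adjusted p = 0.069), except without small hyperplasia 4 (0.59, adjusted p = 0.044) or control tissue 4 (0.64, adjusted p = 0.032). Tumors were above small hyperplasias by 0.68 ± 0.17 (adjusted p = 0.0014), and the 0.36 between tumors and large hyperplasias was not called (adjusted p = 0.071), but was without large hyperplasia 5 (0.46, adjusted p = 0.035), with only the 2 groups (0.038), with the methods' t-test after adjustment (0.047) and with the mean of all probe sets (0.033). A second probe set separated the stages more clearly. It gave 35.2, 37.3, 68.9 and 49.0 in control tissue, 59.5, 89.8, 106, 57.5 and 85.6 in small hyperplasias, 118, 116, 124, 130.3 and 139.9 in large hyperplasias, and 144 to 279 in tumors. Tumors, large and small hyperplasias did not overlap with each other, and the limma differences were 0.59 (small hyperplasias against control tissue, adjusted p = 0.011), 0.59 (large against small hyperplasias, adjusted p = 0.022) and 0.50 (tumors against large hyperplasias, adjusted p = 0.004). The study lists this probe set among genes selected on these same arrays, so it is not independent evidence of its direction. Another probe set of Ehf was higher in tumors (1.13, adjusted p = 2.2e-05) and large hyperplasias (0.80, adjusted p = 0.006) than in control tissue, and the last was under 30 on all 31 arrays and was not tested.

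Elf3, another epithelial ETS factor, changed little. Its signal was 98.2, 107, 103 and 137 in control tissue, 87.6, 82.7, 115, 121 and 106 in small hyperplasias, 129, 92.6, 85.5, 72.3 and 83.2 in large hyperplasias, and 80.0 to 233 with a median of 134 in tumors. The 4 groups overlapped. The difference of tumors from control tissue was 0.31 ± 0.19 (95% interval -0.08 to 0.70, adjusted p = 0.15). Tumors were above large hyperplasias by 0.55 ± 0.18 (adjusted p = 0.01), a call lost with the replicate block (0.37, adjusted p = 0.068). They were above small ones by 0.42 ± 0.18 (adjusted p = 0.047), a call lost without small hyperplasia 1, 2, 3 or 5 (0.36 to 0.46). The call against small hyperplasias was also lost with no offset, a floor at 30, no filter, only the 2 groups or the replicate block (adjusted p of 0.051 to 0.24).

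Elf5, which drives the alveolar cell fate and milk protein genes, had the widest spread among tumors of the 9 genes. Its signal was 212, 502, 575 and 325 in control tissue, 225, 184, 209.8, 187 and 269 in small hyperplasias, and 155, 168, 152, 295 and 314 in large hyperplasias. In tumors 1, 2 and 3 it was 515, 563 and 936, and in the other 8 tumors it ranged from 48.9 to 358 with a median of 104. No difference between groups was called for Elf5 over all arrays, but with only the 2 groups in the fit it was called lower in large (-0.82, adjusted p = 0.029) and in small hyperplasias (-0.78, adjusted p = 0.024) than in control tissue. In tumors against control tissue it was -0.90 ± 0.49 (95% interval -1.92 to 0.12, adjusted p = 0.11). With tumors 4 to 11 only, limma called it lower than in control tissue (-1.52, adjusted p = 0.00031). It was then also lower than in small hyperplasias (-0.74, adjusted p = 0.046), but was not called against large ones. That choice was made after seeing the data and leaves out the tumors with the highest Elf5, so it is no independent test. The dimmer probe set was also highest in tumors 2 and 3, at 157 and 172, but had 29.7 in tumor 1.

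The 3 tumors with the highest Elf5 also had the highest milk gene signals. Csn2, which encodes β-casein, was at 5775, 4639 and 6004 in tumors 1, 2 and 3, between 172 and 2433 in the other 8 tumors, and under 30 on every control array. Wap, the whey acidic protein gene, was at 3797, 259 and 4828 in tumors 1 to 3 and at 10.5 to 181 in the others. Wfdc18, a secreted protein gene of alveolar cells, was at 3647, 3114 and 4604 in tumors 1 to 3 and at 345 to 1039 in the others. The lactoferrin gene Ltf did not set them apart, at 1189, 1726 and 1502 in tumors 1 to 3 and 216 to 3006 in the others. Kit was also highest in these 3 tumors, and Krt8 and Krt18 of luminal cells were not set apart, with Krt8 at 1590, 1830 and 1373 in tumors 1 to 3 and 522 to 2263 in the others. Whether these tumors held more secretory epithelium was not tested. Their arrays also differed as a whole. The median signal over all probe sets was 29.1 to 29.6 in tumors 1 to 3 and 23.9 to 26.7 in the other 8. The share of probe sets at 30 or more was 49.4% to 49.8% in tumors 1 to 3 and 46.2% to 48.0% in the others. The part of this array difference in the Elf5, Kit and milk gene signals was not tested.

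**Figure D3:**
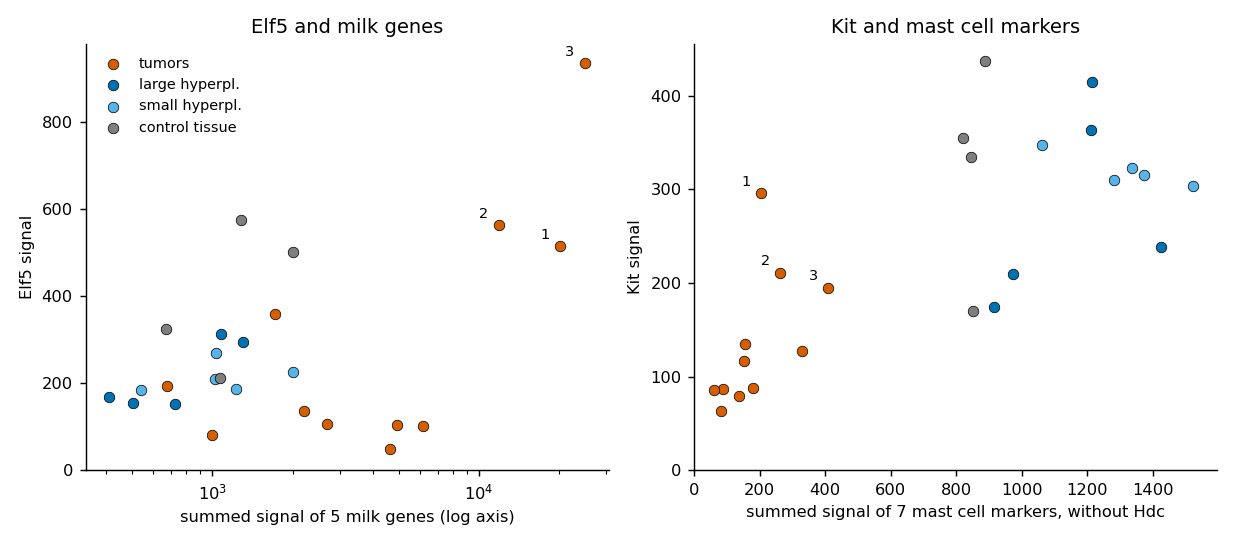
Left, Elf5 signal (linear axis) against the summed signal of 5 milk genes (log axis); right, Kit signal against the summed signal of 7 mast cell markers without Hdc (linear axes); each point is 1 of the 25 tissue arrays, colored by group, and tumors 1 to 3 are numbered. Tumors 1 to 3 have the highest milk gene sums, 11889 to 24913, and Elf5 signals of 515 or more, and all 11 tumors lie below control tissue in the mast cell sum, at 61.7 to 409.5 against 820.1 to 887.

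Elf5 has 2 annotated starts in RefSeq (GRCm38.p6), and lies beside Ehf, its neighbor among protein-coding genes on chromosome 2. The 250 bases before each start are shown because β-catenin acts through Tcf/Lef factors, and because Elf5 and Ehf lie side by side while only Ehf was called higher in tumors. Capitals mark the letters ATCAAAG, searched on both strands as a Tcf/Lef motif. The windows lie at chr2:103411848-103412097 and chr2:103423818-103424067, both on the plus strand.
Elf5 upstream start: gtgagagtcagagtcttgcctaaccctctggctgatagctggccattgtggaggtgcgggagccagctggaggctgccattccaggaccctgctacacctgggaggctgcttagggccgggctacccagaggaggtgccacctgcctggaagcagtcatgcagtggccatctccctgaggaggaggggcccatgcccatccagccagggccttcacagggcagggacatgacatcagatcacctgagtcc
Elf5 downstream start: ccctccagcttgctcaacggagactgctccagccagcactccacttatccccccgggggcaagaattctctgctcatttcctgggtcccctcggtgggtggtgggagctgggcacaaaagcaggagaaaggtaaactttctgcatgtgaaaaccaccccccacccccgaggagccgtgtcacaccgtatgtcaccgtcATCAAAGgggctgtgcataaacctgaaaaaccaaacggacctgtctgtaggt
The downstream window holds the motif once, beginning 52 bases before the start, and the upstream window does not hold it. It is in 3.21% of 32851 such windows of the table, and in 1 of the 8 windows given for Elf3, Elf5, Epcam, Kit and Prom1. The shorter letters GGAAG, a core of ETS sites, are in 64.1% of all windows and in 4 of these 8. A match describes letters only.

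Of 11 other ETS factor genes tested, 6 were higher in tumors than in control tissue and 1 was lower, with a median of 0.27. Elk3, a factor of vessels and mesenchyme, averaged 508 in tumors and 154 in control tissue (1.60 ± 0.16), and Elf1, broadly expressed, was higher by 1.07 ± 0.11. Erg, an endothelial factor, was lower by -0.79 ± 0.14, and Spi1, the myeloid factor PU.1, was higher by 0.72 ± 0.23 (limma adjusted p of 0.0089 or less for the 4). Beside these, the 5 endothelial markers summed to 406 to 771 in tumors and 1093 to 1302 in control tissue, and the 8 macrophage markers to 4342 to 8467 in tumors and 4386 to 6823 in control tissue.

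Kit, the receptor of stem cell factor and a surface marker of luminal progenitors and also of mast cells, had the largest fall of the 9 genes in tumors. Its signal was 170.4, 437, 355 and 335 in control tissue, 310.1, 348, 315, 323 and 304 in small hyperplasias, 175, 209.8, 239, 415 and 364 in large hyperplasias, and 63.4 to 296 with a median of 117 in tumors. Tumors lay wholly below small hyperplasias, and overlapped with control tissue and large hyperplasias, where control tissue 1 and large hyperplasia 1 were lowest. Kit was lower in tumors than in control tissue by -1.23 ± 0.28 (adjusted p = 0.00044), than in large hyperplasias by -1.03 ± 0.26 (adjusted p = 0.0018) and than in small ones by -1.28 ± 0.26 (adjusted p = 0.00021). Means were 135 ± 71.3 in tumors and 324 ± 112 in control tissue (SD, n = 11 and 4). Hyperplasias did not differ detectably from control tissue, with -0.20 in large (95% interval -0.86 to 0.47) and 0.05 in small ones (-0.61 to 0.72). Its dimmer probe set was lower in the same 3 comparisons, by -0.98, -0.86 and -0.998, and set tumors 1 to 3 further apart, with 91.2, 65.7 and 76.0 there and 21.0 to 28.4 in the other 8 tumors.

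Genes of mast cells, which also carry Kit, were mostly lower in tumors too. Of 6 mast cell markers tested, 5 were called lower in tumors and 1 higher, against control tissue. Mcpt4 and Cma1, which encode mast cell proteases, averaged 33.3 and 43.6 in tumors against 197 and 212 in control tissue, with differences of -2.25 ± 0.28 and -2.06 ± 0.27. Cpa3, mast cell carboxypeptidase, was lower by -2.19 ± 0.33 and the histidine decarboxylase gene Hdc, also active in neutrophils, was higher by 3.43 ± 0.47 (limma adjusted p of 2.8e-06 or less for the 4). The sum of all 8 markers, Ms4a2 being under 30 on every tumor and control array, was 145 to 1126 in tumors, 975 to 1496 in large hyperplasias, 1097 to 1529 in small ones and 822 to 889 in control tissue. In tumors much of this sum was Hdc, at a mean of 293. Without Hdc the sum was 61.7 to 409.5 in tumors and 820.1 to 887 in control tissue, which did not overlap, and it was 205, 263 and 409.5 in tumors 1 to 3, where Kit was highest. The share of mast cells in the fall of Kit was not tested. Of the 5 markers of melanocytes, which also carry Kit, 4 were under 30 on every tumor array and 5 on every control array.

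The ligand of Kit fell as well. Of 9 genes of Kit signaling tested, 7 were called lower in tumors and 2 higher, against control tissue, with a median of -0.61. Kitl, which encodes stem cell factor, averaged 358 in tumors and 1024 in control tissue (-1.55 ± 0.22), and Pik3r1, the regulatory subunit of phosphoinositide 3-kinase, averaged 285 in tumors and 918 in control tissue (-1.72 ± 0.24). Stat5a and Stat5b, the transcription factors of the prolactin pathway that Kit can also engage, were lower by -1.19 ± 0.19 and -1.01 ± 0.10 (limma adjusted p of 4.6e-06 or less for the 4). In large hyperplasias 1 of the 9 was higher and 2 were lower, Kitl among them (-0.67, adjusted p = 0.032), and in small ones 1 was higher and 0 lower. Adipocytes and stromal cells also express several of these genes, and the adipocyte sums given above fell in tumors too, a relation that was not tested.

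Prom1, which encodes the CD133 antigen prominin-1, was low in tumors and high in small hyperplasias. Its signal was 58.4, 129.5, 146 and 155 in control tissue, 256, 123, 103, 242 and 146 in small hyperplasias, 95.8, 69.9, 99.3, 61.9 and 82.6 in large hyperplasias, and 19.9 to 91.5 with a median of 56.4 in tumors. Small hyperplasias lay wholly above large ones and above tumors. Prom1 was lower in tumors than in control tissue by -0.86 ± 0.26 (adjusted p = 0.0051) and than in small hyperplasias by -1.32 ± 0.24 (adjusted p = 6.3e-05). Large hyperplasias were below small ones by -0.89 ± 0.28 (adjusted p = 0.046), the only member called between the hyperplasias, where 4.1% of all genes were higher and 5.55% lower. That call was lost without any 1 of the 5 large hyperplasias or without small hyperplasia 1 or 4 (-0.96 to -0.74).

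Cd14, a co-receptor for lipopolysaccharide on myeloid cells and also a surface protein of luminal progenitors, was higher in tumors. Its signal was 421, 377, 478 and 341 in control tissue, 477, 404, 454, 478 and 585 in small hyperplasias, 516, 461, 614, 488 and 579.6 in large hyperplasias, and 385 to 1335 with a median of 716 in tumors. Only the lowest tumor, number 9, overlapped with control tissue. Cd14 was higher in tumors than in control tissue by 0.89 ± 0.21 (adjusted p = 0.00048), than in small hyperplasias by 0.66 ± 0.19 (adjusted p = 0.0055) and than in large ones by 0.51 ± 0.19 (adjusted p = 0.027). The last call was lost without large hyperplasia 1, 2 or 4 (0.46 to 0.50) and with tumors 4 to 11 only (0.38, adjusted p = 0.086). It was also lost with only the 2 groups in the fit (0.51, adjusted p = 0.058) and with quantile normalization (0.42, adjusted p = 0.073). In hyperplasias the difference from control tissue was 0.38 (95% interval -0.10 to 0.87) in large ones, where it was called with only the 2 groups in the fit (adjusted p = 0.017) and with the replicate block (adjusted p = 0.048), and 0.24 (-0.25 to 0.73) in small ones.

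Of 8 genes of lipopolysaccharide sensing tested with Cd14, 5 were higher in tumors than in control tissue and 1 was lower, with a median of 0.84. The receptor gene Tlr2 averaged 236 in tumors and 68.9 in control tissue (1.54 ± 0.14), and the adaptor gene Myd88 averaged 555 in tumors and 229 in control tissue (1.22 ± 0.10). Tnfaip3, a feedback inhibitor of NF-κB, was higher by 1.32 ± 0.25 and the kinase gene Irak1 by 0.95 ± 0.24 (limma adjusted p of 0.0011 or less for the 4). Myeloid markers moved beside these. Of 4 neutrophil markers tested, 4 were higher in tumors, and of 8 macrophage and monocyte markers 3 were higher and 1, Cd163, lower. In large hyperplasias 7 of these 8 were higher, with sums of 8298 to 11408 against 4386 to 6823 in control tissue. The part of myeloid cells in the Cd14 signal was not tested.

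Between the lesions, 3 members were higher in tumors than in large hyperplasias, Aldh1a3, Elf3 and Cd14 (22.7% of all genes), and 1 was lower, Kit (31.9%). With quantile normalization 2 members were lower there, Epcam being added (-0.58, adjusted p = 0.021), and Cd14 was no longer called (0.42, adjusted p = 0.073). Against small hyperplasias 4 members were higher in tumors, Aldh1a3, Ehf, Cd14 and Elf3 (25.7%), and 3 were lower, Kit, Prom1 and Epcam (32.1%). The order of mean signals was tumor, small hyperplasia, large hyperplasia, control tissue for Aldh1a3, and neighbors in that order differed except for both hyperplasias. For Ehf, Cd14 and Cd24a it was tumor, large hyperplasia, small hyperplasia, control tissue. Among these neighbors only tumors and large hyperplasias differed for Cd14, only small hyperplasias and control tissue for Cd24a, and none for Ehf. For Prom1 it was small hyperplasia, control tissue, large hyperplasia, tumor, and for Epcam small hyperplasia, large hyperplasia, tumor, control tissue, with no neighbors called. For Elf5 control tissue was highest and no neighbors were called, while the place of tumors depends on the measure, with a mean of 286 above and a median of 136 below the values of both hyperplasias. For Elf3 it was tumor, control tissue, small hyperplasia, large hyperplasia, again with no neighbors called. For Kit the order was control tissue, small hyperplasia, large hyperplasia, tumor, and only the step to tumors was called.

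Among other genes of luminal progenitors and alveolar cells, 4 of 11 tested were higher in tumors than in control tissue and 3 lower, with a median of 0.31. Slpi, a secreted protease inhibitor, averaged 3606 in tumors and 407 in control tissue (3.23 ± 0.27), and Plet1, a surface protein of progenitors, was higher by 2.04 ± 0.38. Lmo4, a LIM domain cofactor of luminal cells, averaged 176 in tumors and 705 in control tissue (-1.99 ± 0.22), and Mfge8, a milk fat globule protein, was lower by -0.97 ± 0.20 (limma adjusted p of 0.00013 or less for the 4). In the hyperplasias Slpi was higher and Lmo4 lower as well. Hormone-sensing luminal genes fell, with 4 of 4 tested lower in tumors and a median of -2.52. Foxa1 averaged 87.7 in tumors and 806 in control tissue (-3.31 ± 0.41) and the estrogen receptor gene Esr1 averaged 146 in tumors and 752 in control tissue (-2.35 ± 0.22).

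Within the 11 tumors no pair of members was called as correlated. With so few samples only strong correlations can pass, so this does not show that the members varied apart. Of 36 pairs, 0 passed an adjusted p of 0.05 in a permutation test of Pearson's r with 100000 resamples, and 4 had an unadjusted p under 0.05. The closest pair was Aldh1a3 and Elf3 (r = 0.746, permutation p = 0.00916, adjusted p = 0.33, Spearman's rho = 0.718, permutation p = 0.0164). Without the 2 tumors farthest from the median of Aldh1a3 r was 0.439. Because tumors 1 to 3 shared high Elf5, Kit and milk gene signals, r was also taken over the other 8 tumors, where it was 0.914 (permutation p = 0.00207, adjusted p = 0.0745). Kit and Elf5 correlated at 0.673 over the 11 tumors (permutation p = 0.0235, adjusted p = 0.373), at 0.494 without the 2 tumors farthest from the median of Kit, and at -0.176 over tumors 4 to 11 (permutation p = 0.688), so that this relation rests on tumors 1 to 3.

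The genes most like each member over the 11 tumors, of 7021 genes with a tumor median of at least 100, were taken as a description. All points share their arrays and the differences in cell makeup. These are the highest of 7021 values over 11 points, so high r is found by selection alone, and no test was made. Nearest to Elf5 were Nit2 (r = 0.956), Ano1 (0.932) and Fnbp1l (0.932), and Ano1, a chloride channel gene, ranged from 169 to 878. Nearest to Cd14 were Mgst1 (0.937), Cebpd (0.922) and Cbr2 (0.905), of which Cebpd encodes a C/EBP transcription factor of acute phase responses and ranged from 161 to 537. Nearest to Aldh1a3 were Satb1 (0.913), S100a6 (0.900) and Cystm1 (0.899), and nearest to Kit were Apod (0.888), Chaserr (0.863) and Med19 (0.856). Over tumors 4 to 11 r was 0.932, 0.908 and 0.934 for the 3 genes of Aldh1a3. For those of Kit it was 0.631, 0.752 and 0.582. Erbb3, an epidermal growth factor receptor family gene, was the third for Epcam (0.849), and Myc, the gene deleted in the sorted cells, the second for Cd24a (0.859). Nearest to Ehf were Hipk2 (0.954), Zmym2 (0.903) and Ephb6 (0.874), to Elf3 Denn2b (0.932), Gfpt1 (0.906) and Vrk3 (0.896), and to Prom1 Rbbp4 (0.904), Plcg2 (0.858) and Dbndd2 (0.851).

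In sorted basal cells the question was whether loss of Myc changed these genes. The Myc signal was 141, 428 and 42.3 in the pools of K5creMycL/L mice and 1479, 1677 and 1869 in those of control mice, and the groups did not overlap. No source used here gives whether this probe set lies in the deleted part of Myc. Cells had been sorted for CD24, and Cd24a is therefore no finding there. Basal markers were bright, with sums of 22756 to 28187 in Myc-deficient and 21099 to 23184 in control pools. Luminal keratins had signal too, with sums of 3744 to 4731 in Myc-deficient and 3305 to 3956 in control pools. Fibroblast markers summed to 2201 to 3365 in Myc-deficient and 2379 to 2955 in control pools. The part of other cells in these pools was not tested. All 5 neutrophil markers were under 30 in every pool, as were all 8 mast cell markers in control pools and 7 of them in Myc-deficient pools, Hdc being the exception.

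Of the 9 members 0 were called in Myc-deficient against control basal cells, as was 0% of the 9512 genes tested, higher or lower, by limma. At an unadjusted p under 0.05 limma found 687 genes, and the methods' t-test found 197 higher and 255 lower before adjustment and 0 after it. Epcam was at 3532, 5428 and 3589 in Myc-deficient and 3037, 3425 and 3436 in control pools, which did not overlap, with a difference of 0.31 ± 0.21 (95% interval -0.13 to 0.76, adjusted p = 0.83). Ehf was at 81.4, 3.07 and 143 in Myc-deficient and 227, 13.3 and 207 in control pools (-0.81, -2.65 to 1.03). In both groups the pool numbered 2 was far below the others. The second probe set of Ehf gave 87.7, 9.05 and 68.3 in Myc-deficient and 146, 15.7 and 275 in control pools (-0.93, adjusted p = 0.85), again from arrays on which the study selected it.

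Kit, Elf5, Aldh1a3, Cd14, Prom1 and Elf3 were dim in these cells. Another 12 genes of luminal progenitors and alveolar cells ranged from dim to bright. In Myc-deficient pools Mfge8 and Slpi averaged 3296 and 2588, and Ltf and Itga2 averaged 67.0 and 71.9. Cyp24a1 was under 30 in every pool. The sum over the 12, to which the bright genes add most, was 10797 to 17488 in Myc-deficient and 9632 to 17912 in control pools. Elf5 was at 32.5, 0.511 and 39.8 in Myc-deficient and 106, 9.7 and 91.6 in control pools (-0.97, 95% interval -2.37 to 0.42). Kit was under 30 in all Myc-deficient pools, at 26.6, 0.731 and 8.92, and at 56.2, 1.13 and 52.8 in control pools (-0.75, -2.03 to 0.53). Within same-numbered pools Elf5, Kit and Ehf were lower in Myc-deficient cells in 3 of 3 pairs and Epcam was higher in 3 of 3. In the pair numbered 2, however, Elf5, Kit and Ehf were under 30 in both groups, too close to background for an order to be read. Aldh1a3, Elf3, Cd14, Prom1 and Cd24a had mixed signs. The share of all genes with the same sign in 3 of 3 pairs was not counted, so no effect of Myc is read from these signs. With the pool number as a block limma still called none of the 9 members, with adjusted p-values of 0.39 for Elf5, 0.53 for Kit, 0.45 for Ehf and 0.41 for Epcam. The intervals printed for sorted cells are from the fit without that block. With it the differences were the same. Standard errors were 0.38 for Elf5, 0.43 for Kit, 0.37 for Ehf and 0.13 for Epcam, in place of 0.64, 0.59, 0.85 and 0.21. Aldh1a3, Elf3, Cd14 and Prom1 had differences of 0.40, 0.16, 0.25 and -0.05, with the 95% interval of Prom1 from -1.70 to 1.60.

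**Figure D4:**
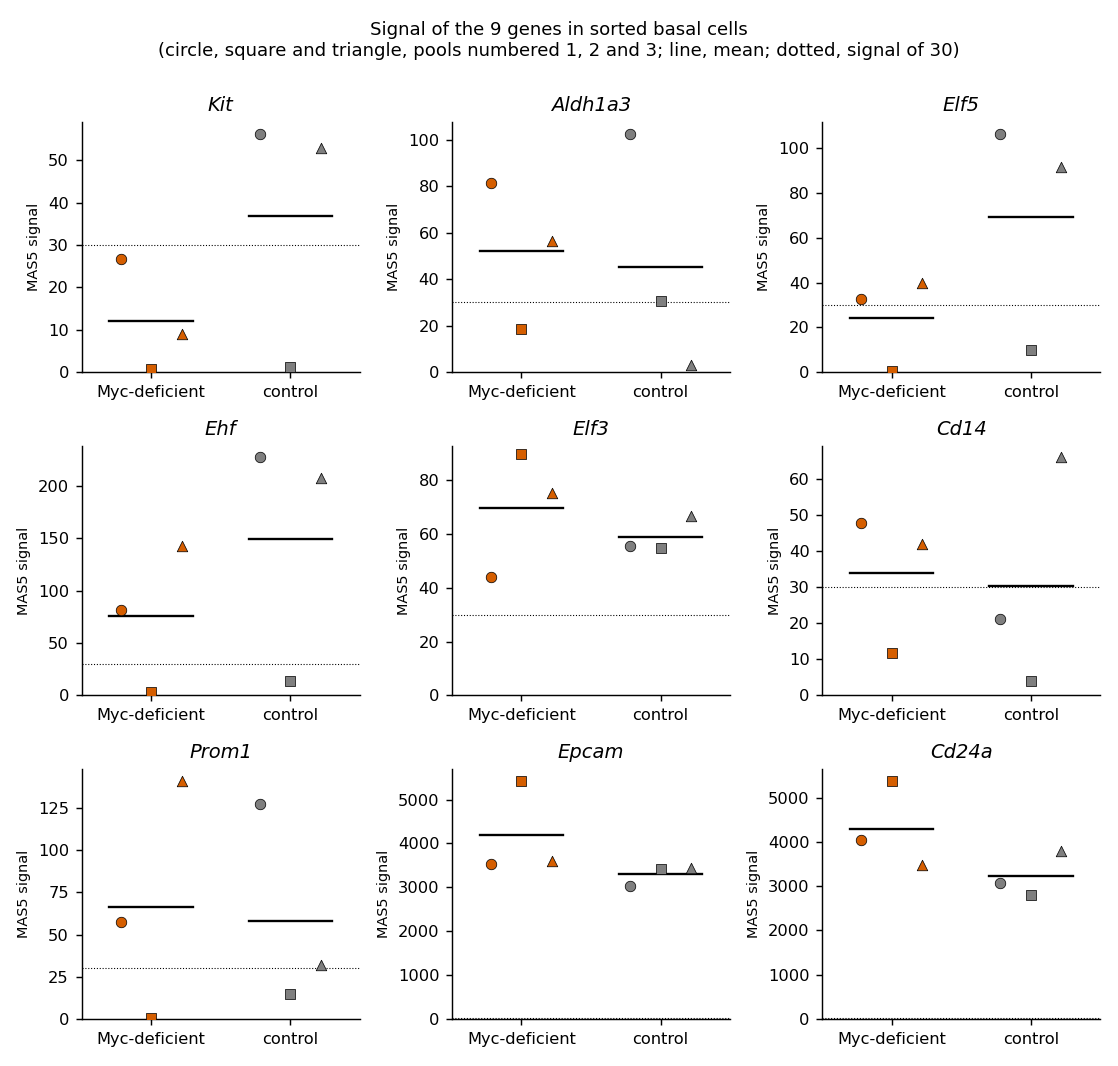
MAS5 signal (linear axes from 0) of the 9 genes in the 3 pools of Myc-deficient basal cells (orange, left) and the 3 pools of control basal cells (grey, right); symbols give the pool number, the line is the mean and the dotted line a signal of 30. Kit, Elf5 and Ehf are lowest in the pool numbered 2 of either group, while Epcam and Cd24a are highest in pool 2 of the Myc-deficient cells.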

How the data were processed

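RNA of 25 mammary tissue samples and of 6 pools of sorted basal cells was hybridised to Affymetrix Mouse Genome 430 arrays, with the Affymetrix labeling for tissue and NuGEN amplification for sorted cells, so the sets were never compared. The deposited values are linear signal intensities that the authors computed with MAS5 in Affymetrix Expression Console, per the labels (its version is not given). Each array had a mean of 100 once 2% of the probe sets were trimmed at either end. Of 45101 probe sets, 64 controls were left out. Of the remaining 45037, 34945 have 1 gene symbol, 932 several and 9160 none. The RefSeq table held no match by gene ID for 204 of those with 1 symbol. Levels of different probe sets were not ranked, since probes differ in brightness.

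Tissue and sorted arrays were each fitted in 1 model with limma 3.58.1 in R 4.3.3 (lmFit, contrasts.fit and a trended eBayes), after 16 was added to each signal and log2 taken. A probe set was tested if the median of either group compared reached 30. A gene was represented by its brightest probe set with a single symbol. Pearson and Spearman permutation tests used numpy 2.4.6. The methods were tested on simulated data. Members, lists and the rule for named genes (up to 4 called members of each list with the largest difference, and the 3 genes most correlated with each member) were chosen with earlier results of these data known. In sorted cells same-numbered pools deviated together (r of 0.23, 0.239 and 0.277 over 18094 probe sets), each correlating best with its own number, so the numbers pair them, by a check on the data only, and a fit with that block changed no call there. The alternatives run were quantile normalization, no filter, a floor at 30, no offset, only the compared groups, the methods' t-test, the mean of all probe sets, a replicate block and leaving out each sample of groups of up to 5. The number of arrays limits the precision.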

Additional observations from a re-analysis of the deposited data

Results flagged for a closer look

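Epcam in control tissue 1 stood apart, at 449 against 774 to 853 in the other 3 control samples, a gap of 0.847 of the range of the group. It was the only such case among 27 sets of a gene and a group of 4 or 5 samples, and chance alone would set apart about 1 in 20. Control tissue 1 had the lowest signal of the control samples for every member but Cd14.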

How the results depend on the processing

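Of 25 called differences of the members, 14 stayed called under every alternative run and 11 were lost under at least 1, and 0 of the 25 reversed. Of 38 uncalled differences, 11 were called under at least 1 alternative. The cause was not tested, except that runs without a sample have fewer samples. In tumors against control tissue, 1 member was called lower in place of 2 with the methods' t-test after adjustment and with the replicate block, Prom1 being lost (adjusted p = 0.068 and 0.089). In large hyperplasias against control tissue, 2 members were called higher in place of 4 with the adjusted t-test and with the mean of all probe sets, 2 to 4 when a sample was left out, and 1 was called lower in place of 0 with only the 2 groups. In small hyperplasias 1 was called lower in place of 0 with only the 2 groups. In tumors against large hyperplasias, 2 were called lower in place of 1 with quantile normalization, the adjusted t-test or tumors 4 to 11 only, 3 with the unadjusted t-test and 0 with the replicate block. Between the hyperplasias 0 were called lower in place of 1 without the offset, without the filter, with the adjusted t-test and with the replicate block, 2 with the unadjusted t-test, and 0 to 1 when a sample was left out. In tumors against small hyperplasias the calls of Elf3 and Epcam were the ones lost. Tissue numbers did not pair the samples (r of -0.153 to 0.125).

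Some uncalled differences changed sign. Samples of the control, hyperplasia and sorted cell groups were dropped in turn, but no single tumor was. Ranges for comparisons with tumors therefore do not cover the spread among tumors. Values were -0.026 to 0.27 for Epcam in tumors against control tissue, lowest without control tissue 1. For Kit in small hyperplasias against control tissue the values were -0.21 to 0.21, again lowest without control tissue 1. They were -0.18 to 0.068 for Elf5 in tumors against large hyperplasias, and in large against small hyperplasias -0.19 to 0.058 for Elf5 and -0.16 to 0.031 for Epcam. In sorted cells they were -1.81 to 0.090 for Ehf, -0.016 to 0.39 for Elf3, -0.78 to 0.85 for Prom1, -0.23 to 0.78 for Cd14 and -0.25 to 1.07 for Aldh1a3. With the replicate block Elf5 was 0.59 in tumors against large and 0.55 against small hyperplasias. Epcam was 0.018 in tumors against large hyperplasias with the mean of all probe sets, and 0.028 in large against small hyperplasias with quantile normalization. In sorted cells Prom1 was 0.33 with signals floored at 30 and 0.38 with pools 1 and 3 only, where Elf3 was -0.057. The choices of tumors 4 to 11 and of pools 1 and 3 were made after seeing the data. Members under a signal of 30 are too close to background for an order to be read.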
